A study of Gallus gallus with 12 samples.

Results

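Antioxidant defence was followed here as a module of 34 genes chosen by symbol, of which 32 were found among the 30742 rows of the count table. PRDX5 and KEAP1 were not found by symbol and are not analysed here. RNA came from White Leghorn chicken embryos on day 18 of incubation, under the tissue labels hypothalamus and whole brain. Thermal manipulation (ETM) kept eggs at 39.5 °C between days 13 and 18, while control eggs (CT) stayed at 37.8 °C. The groups were ETM hypothalamus, CT hypothalamus, ETM whole brain and CT whole brain, with 3 libraries in each and 1 batch label for all. The replicates are called biological, but whether 1 embryo or a pool went into each library is not stated, so the p-values reflect only library-to-library spread, which may be technical.

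Cells remove reactive oxygen in steps. Superoxide dismutases turn superoxide into hydrogen peroxide, and catalase, glutathione peroxidases and peroxiredoxins break the peroxide down. The peroxidases draw on glutathione or thioredoxin, which reductases restore with NADPH, and in mammals the transcription factor NFE2L2 (NRF2) switches on many of these genes when oxidants release it from KEAP1. The brain uses much oxygen and holds much oxidisable lipid and iron, so glia and neurons depend on this system.

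Total counts ran from 13309467 to 18317019 per library. Levels are given as CPM, counts scaled to library size with TMM factors. The tissue labels were checked against markers. NKX2-1, a defining hypothalamic transcription factor, was at 0.415 ± 0.719 CPM in ETM hypothalamus and 0.0459 ± 0.0795 CPM in CT hypothalamus, against 5.17 ± 0.3 CPM in ETM whole brain and 5.62 ± 0.844 CPM in CT whole brain (SD, n = 3 each). Of the 10 genes in the hypothalamus marker list, 2 were called higher and 4 lower in ETM hypothalamus than in ETM whole brain, and 3 higher and 5 lower in CT hypothalamus than in CT whole brain, so the list went both ways. All 8 tested midbrain and hindbrain markers were higher in the hypothalamus-labelled libraries than in whole brain, so "hypothalamus" is used below only as the label. Genes of the female W chromosome took 0.113% to 0.147% of counts in 3 libraries (ETM hypothalamus 2, CT hypothalamus 3 and ETM whole brain 1) and 0.0105% to 0.0174% in the other 9. The deposited FPKM values of ETM hypothalamus 1 did not match its counts. Calls that change with reads recovered from that column are named below, and changed values without a call are given for some members only.

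The members' summed level was 3006, 2911 and 2866 CPM in ETM whole brain, against 3208, 3517 and 3258 CPM in CT whole brain. It was 4655, 3909 and 4145 CPM in ETM hypothalamus, against 4123, 3897 and 3878 CPM in CT hypothalamus. ETM lay below CT without overlap in whole brain, and the groups overlapped in hypothalamus. FTH1, the iron-storing ferritin heavy chain, made up 21.2% to 27.1% of the members' counts in every library.

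Per kilobase of gene length, FTH1 had the highest mean over the 12 libraries, at 665 CPM per kb. GPX4, which reduces lipid peroxides in membranes, followed at 325 CPM per kb, and PRDX6, a peroxiredoxin that also acts on phospholipids, at 219 CPM per kb. PRDX1, TXN and GPX3 came next with 95.7, 89.4 and 86.0 CPM per kb, in an order that differed between the groups, with GPX3 ahead of PRDX1 in ETM hypothalamus and behind PRDX3 and GPX1 in ETM whole brain. The lowest were SLC7A11, the cystine importer, at 0.596 CPM per kb and GPX7, a peroxidase of the endoplasmic reticulum, at 0.462 CPM per kb. The library ranges of each pair of neighbours in this order overlapped.

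**Figure D1:**
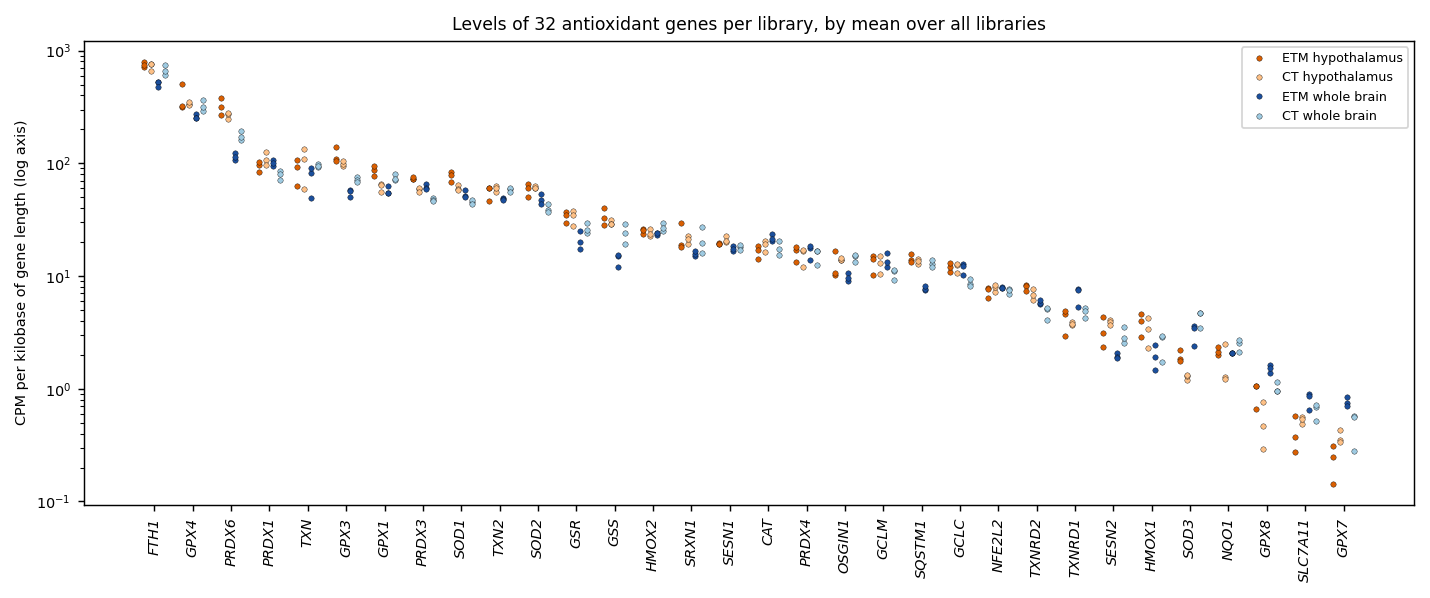
Level of each of the 32 members in every library, as CPM per kilobase of gene length on a log axis, with 1 point per library and colours for the 4 groups. FTH1, GPX4 and PRDX6 have the highest means, and GPX8, SLC7A11 and GPX7 the lowest, with points that overlap those of their neighbours.

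Heat exposure changed 17 of the 32 members in whole brain, 5 higher and 12 lower. Across all genes tested 44.3% passed the same test (edgeR quasi-likelihood, adjusted p below 0.05), with 21.1% higher and 23.2% lower. The share of counts on mitochondrial genes was 7.09% to 8.62% in ETM whole brain, against 6.16% to 6.29% in CT whole brain, and that on lncRNA genes 1.8% to 1.9%, against 1.5% to 1.64%. Neither overlapped between the groups, and their part in the members' changes was not tested. The members' share of 53.1% is thus read against a whole brain in which nearly as large a share of all genes was called. Their median log2 fold change, ETM over CT, was -0.26, beside 0.01 over all genes. The members and all genes differ in gene length, so these medians are not a like comparison. Of 4 equal bins of gene length, the shortest held 15 members and had an all-gene median of -0.20. The longest held 0 members and had an all-gene median of 0.12. The enzymes of the first step of glutathione synthesis, GCLC and GCLM, rose, and GSS, of the second step, fell. Of the peroxiredoxins, PRDX1 and PRDX3 rose and PRDX6 fell. Without ETM whole brain 1, the library of that group with the high W-linked share, 14 members were called, 13 of them among the 17. Of all genes, 38.9% were called without that library. In bulk tissue, fewer cells of a type and less RNA per cell cannot be told apart.

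**Figure D2:**
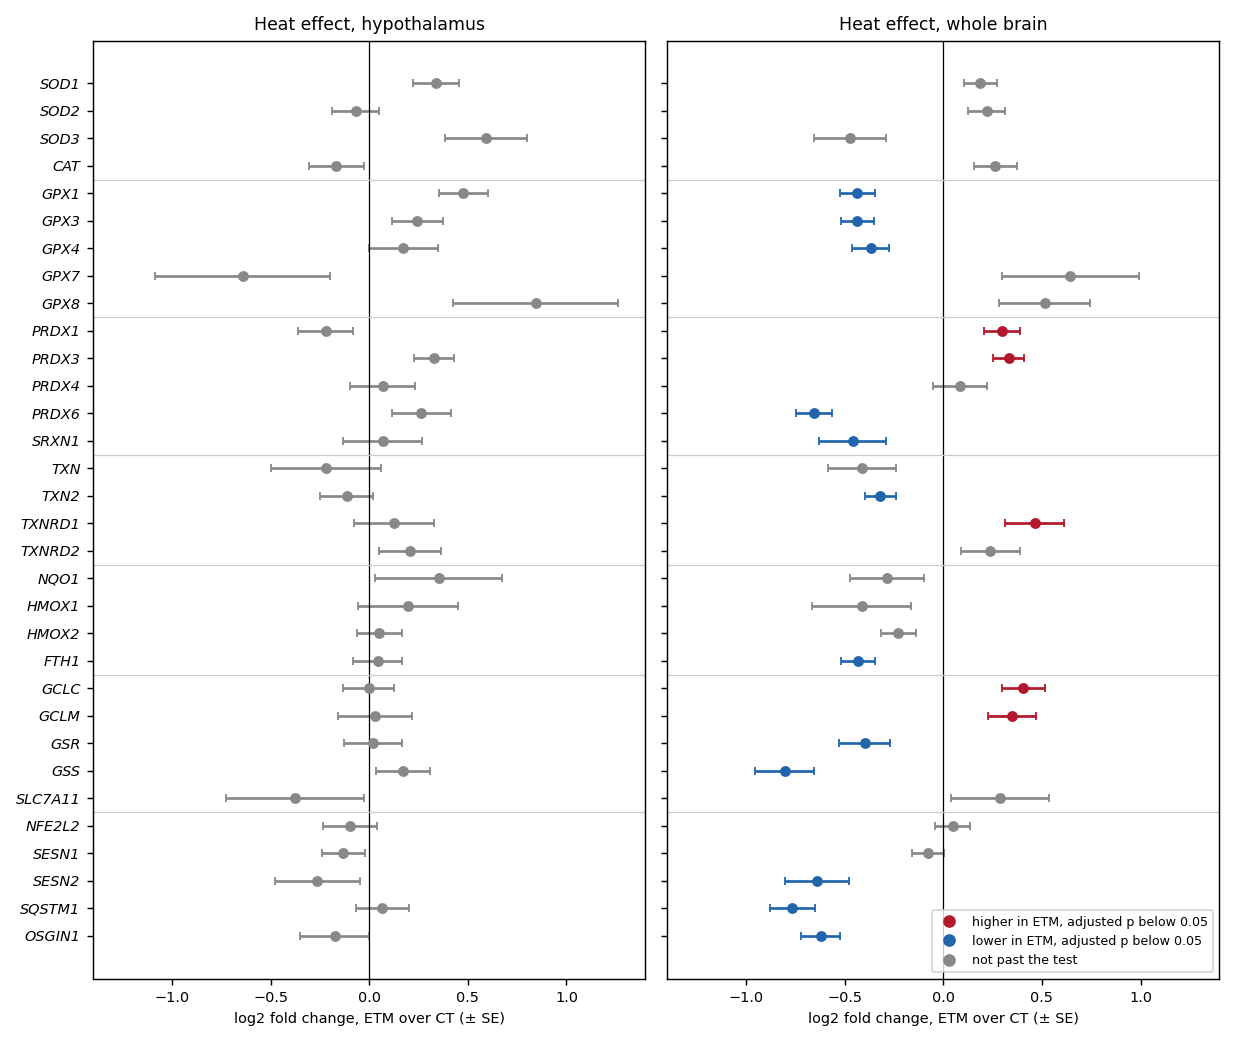
Log2 fold change, ETM over CT, with its standard error for the 32 members in hypothalamus (left) and whole brain (right), in blocks by role. Coloured points passed the test: 5 higher and 12 lower in whole brain, and none in hypothalamus.

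Among the 5 glutathione peroxidases, 3 fell in whole brain and none rose. GPX1, the main peroxidase of the cytosol, had 63.3, 55.0 and 55.7 CPM in ETM whole brain, against 72.7, 81.6 and 74.3 CPM in CT whole brain. The groups did not overlap, and the log2 fold change was -0.44 ± 0.09 (SE), adjusted p = 0.00284. GPX3, which is secreted, had 100, 96.7 and 85.8 CPM in ETM whole brain, against 130.4, 123.1 and 118 CPM in CT whole brain. Every ETM library was below every CT library, at -0.44 ± 0.08 (SE), adjusted p = 0.00203. GPX4 had 223, 203 and 204 CPM in ETM whole brain, against 237, 297 and 257 CPM in CT whole brain, a log2 fold change of -0.37 ± 0.09 (SE), adjusted p = 0.00837. Its groups were also apart, but this direction turned round with the offset described below. GPX7 and GPX8, both of the endoplasmic reticulum, did not pass the test, with log2 fold changes of 0.64 ± 0.35 and 0.51 ± 0.23.

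The peroxiredoxins split. PRDX6 had 320.0, 274 and 294 CPM in ETM whole brain, against 419, 499 and 443 CPM in CT whole brain. The 3 ETM libraries lay well below the CT libraries, at -0.66 ± 0.09 (SE), adjusted p = 0.000343. PRDX1, the main cytosolic peroxiredoxin, had 358, 317 and 339.6 CPM in ETM whole brain, against 290.4, 241 and 272 CPM in CT whole brain. It rose, at 0.30 ± 0.09 (SE), adjusted p = 0.0219, with no overlap between groups. The mitochondrial PRDX3 had 147, 134 and 132 CPM in ETM whole brain, against 110.4, 106 and 103 CPM in CT whole brain, and also rose without overlap, at 0.33 ± 0.08 (SE), adjusted p = 0.00623. PRDX4, of the secretory pathway, was at 0.09 ± 0.14 and did not pass the test. SRXN1, which restores over-oxidised peroxiredoxins, had 16.2, 17.0 and 18.0 CPM in ETM whole brain, against 17.5, 29.4 and 21.5 CPM in CT whole brain. One CT library lay within the ETM range, and the change of -0.46 had an adjusted p of 0.0469.

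In the thioredoxin system, 1 gene rose and 1 fell of 4. TXNRD1, the cytosolic thioredoxin reductase, had 28.3, 27.8 and 19.7 CPM in ETM whole brain, against 19.3, 15.8 and 18.4 CPM in CT whole brain. The ETM libraries were all higher, at 0.46 ± 0.15 (SE), adjusted p = 0.0284. TXN2, the mitochondrial thioredoxin, had 50.6, 49.5 and 49.5 CPM in ETM whole brain, against 60.8, 62.7 and 57.9 CPM in CT whole brain. It was lower in every ETM library, at -0.32 ± 0.08 (SE), adjusted p = 0.00736. TXN, the cytosolic thioredoxin, lies on the Z chromosome and had 108, 178 and 196 CPM in ETM whole brain, against 215, 202 and 204 CPM in CT whole brain. Its change of -0.41 ± 0.17 (SE), adjusted p = 0.0759, did not pass the test, and the lowest value was in the ETM library with the high W-linked share. With that share as a covariate it was -0.19 ± 0.09. TXNRD2, the mitochondrial reductase, was at 0.24 ± 0.15 and did not pass.

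In glutathione synthesis and reduction, 2 genes rose and 2 fell of 5. GCLC, the catalytic subunit of the rate-limiting glutamate-cysteine ligase, had 50.6, 48.3 and 40.1 CPM in ETM whole brain, against 33.6, 31.7 and 36.6 CPM in CT whole brain. GCLM, its modifier subunit, had 35.5, 47.5 and 39.4 CPM in ETM whole brain, against 27.4, 32.6 and 33.2 CPM in CT whole brain. Both rose without overlap, at 0.41 ± 0.11 (SE), adjusted p = 0.0112 for GCLC and 0.35 ± 0.12 (SE), adjusted p = 0.0375 for GCLM. GSS, the synthetase of the second step, had 33.6, 26.9 and 33.8 CPM in ETM whole brain, against 42.8, 64.3 and 52.95 CPM in CT whole brain. It had the lowest log2 fold change of the 32 members, -0.80 ± 0.15 (SE), adjusted p = 0.00155, with the groups apart. GSR, which reduces oxidised glutathione, had 33.0, 47.2 and 37.6 CPM in ETM whole brain, against 45.6, 56.0 and 49.0 CPM in CT whole brain. One ETM library lay within the CT range, and the change was -0.40 ± 0.13 (SE), adjusted p = 0.0278. SLC7A11 did not pass, at 0.29 ± 0.25.

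Of the 4 genes for quinones, haem and iron, FTH1 alone passed the test. It had 681, 683 and 608 CPM in ETM whole brain, against 782, 952 and 854 CPM in CT whole brain. The groups did not overlap, and the change was -0.43 ± 0.09 (SE), adjusted p = 0.00234. HMOX1, the inducible haem oxygenase, had 7.02, 5.49 and 4.17 CPM in ETM whole brain, against 4.99, 8.18 and 8.47 CPM in CT whole brain. These ranges overlapped, and -0.41 ± 0.25 (SE), adjusted p = 0.203, did not pass. The constitutive HMOX2 and the quinone reductase NQO1 were at -0.23 ± 0.09 and -0.29 ± 0.19 and did not pass either.

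The 5 regulators held 3 that fell. SQSTM1 (p62), an autophagy receptor that can bind KEAP1 in mammals, had 12.3, 12.5 and 13.2 CPM in ETM whole brain, against 20.7, 22.4 and 19.6 CPM in CT whole brain. The ETM libraries sat close together below all CT libraries, at -0.77 ± 0.11 (SE), adjusted p = 0.000505. OSGIN1, a growth inhibitor induced by oxidative stress in human cells, had 46.8, 39.4 and 42.4 CPM in ETM whole brain, against 66.5, 67.6 and 58.1 CPM in CT whole brain, again without overlap, at -0.62 ± 0.10 (SE), adjusted p = 0.000708. SESN2, a stress-induced sestrin, had 8.30, 7.67 and 7.41 CPM in ETM whole brain, against 10.2, 14.1 and 11.1 CPM in CT whole brain, apart as well, at -0.64 ± 0.16 (SE), adjusted p = 0.00832. NFE2L2 itself had 36.9, 38.2 and 37.2 CPM in ETM whole brain, against 36.7, 33.2 and 35.7 CPM in CT whole brain. The ETM libraries were just above the CT libraries, but 0.05 ± 0.09 (SE), adjusted p = 0.694, did not pass. SESN1 was at -0.08 ± 0.08.

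None of the superoxide dismutases, nor catalase, passed in whole brain. SOD1, the cytosolic copper and zinc enzyme, had 219, 192 and 192 CPM in ETM whole brain, against 171, 178 and 165 CPM in CT whole brain, at 0.19 ± 0.08 (SE), adjusted p = 0.0845. SOD2, the mitochondrial manganese enzyme, had 102, 117 and 95.2 CPM in ETM whole brain, against 84.5, 96.1 and 81.4 CPM in CT whole brain, at 0.22 ± 0.10 (SE), adjusted p = 0.0839. CAT had 105, 91.0 and 94.98 CPM in ETM whole brain, against 89.9, 68.7 and 76.9 CPM in CT whole brain, at 0.26 ± 0.11 (SE), adjusted p = 0.0717. The ETM libraries were above the CT libraries for SOD1 and CAT and overlapped them for SOD2. SOD3, the extracellular enzyme, had 13.9, 9.33 and 13.4 CPM in ETM whole brain, against 13.4, 18.1 and 18.1 CPM in CT whole brain, with overlap, at -0.47 ± 0.18 (SE), adjusted p = 0.0551.

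**Figure D3:**
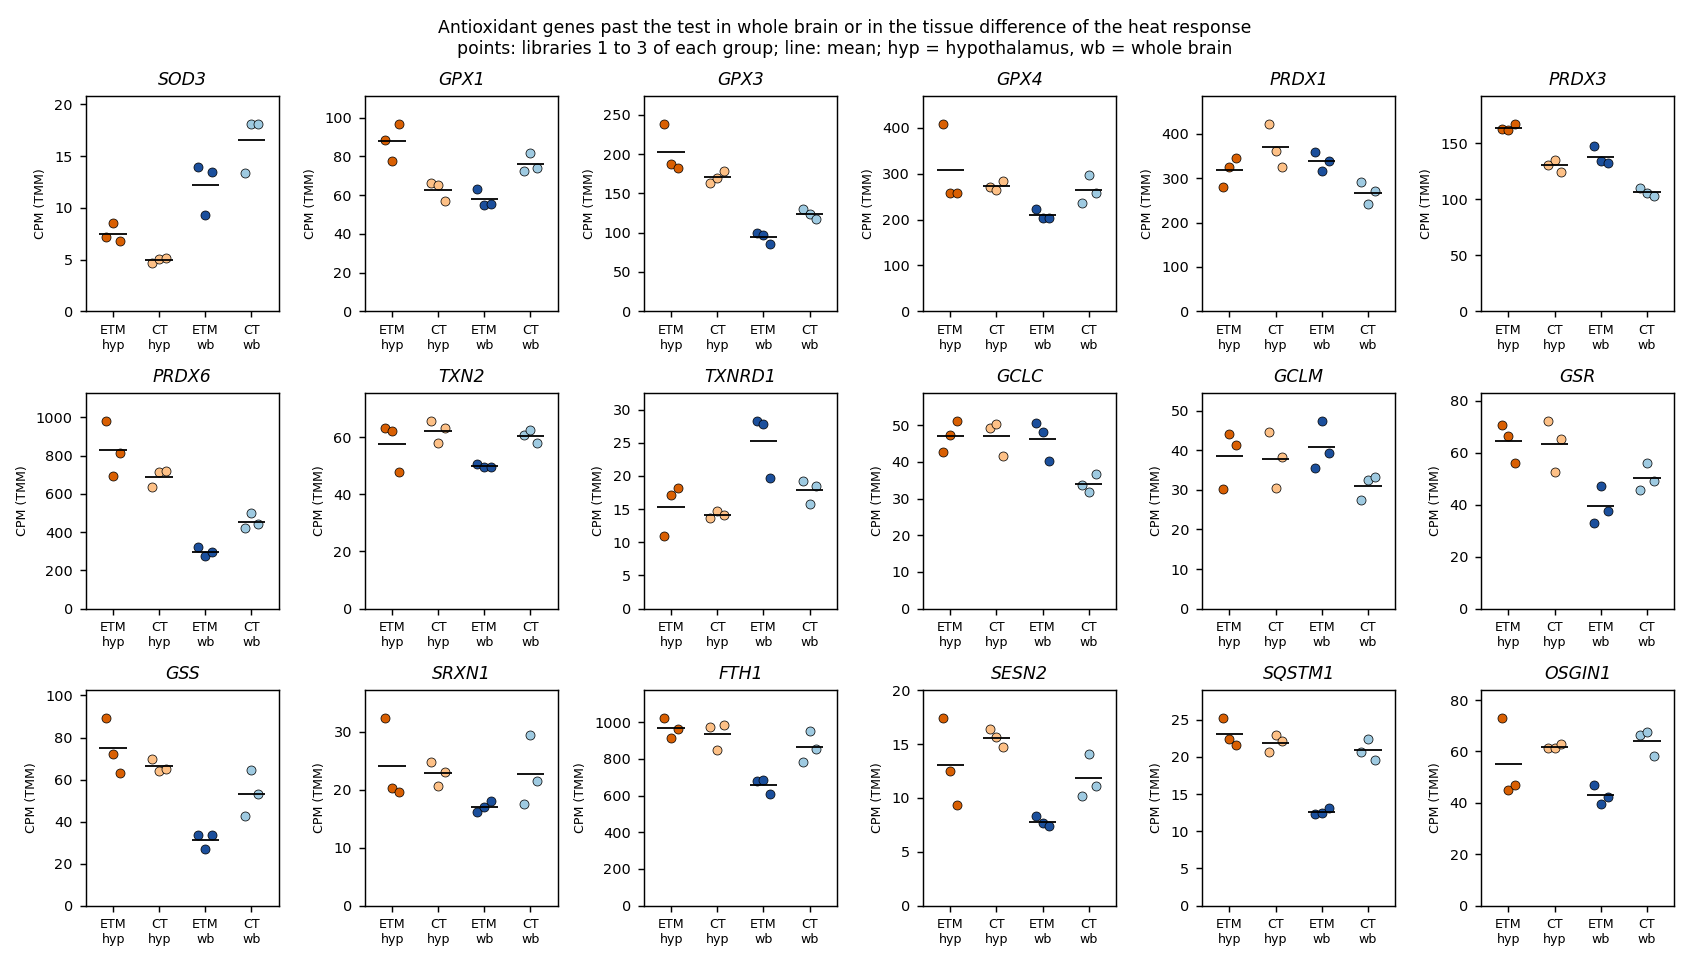
CPM in every library for the 18 members that passed the test in whole brain or in the tissue difference of the heat response, with the mean of each group as a line; axes start at 0. In whole brain PRDX6, SQSTM1, OSGIN1 and GSS are lower in all 3 ETM libraries, while in hypothalamus the ETM and CT points of these genes overlap.

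Members that did and did not overlap between groups can be set against all genes. In whole brain 11 members were higher in every ETM library than in every CT library and 13 were lower in every one, against 30.5% and 26% of all genes. Leaving out single libraries ended some calls. GCLM lost its call without CT library 1, 2 or 3 or ETM library 2 or 3, with adjusted p from 0.0681 to 0.158. SRXN1 lost it without ETM library 1, 2 or 3 or CT library 2 or 3, at 0.0717 to 0.183. TXNRD1 lost it without ETM library 1 or 2 or CT library 2 or 3, at 0.0621 to 0.103. GSR and PRDX1 lost it without ETM library 1 or 3 or CT library 2 or 3, at 0.0599 to 0.103 for GSR and 0.0551 to 0.0758 for PRDX1. The other 12 calls remained without each single library.

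Where a member lies in the genome moved with its whole brain change. Of the 12 members that fell, 8 lie on chromosomes 11 to 39, the small gene-dense chromosomes of birds, and 4 on chromosomes 1 to 10. All 5 that rose lie on chromosomes 1 to 10. Of all genes called, 2051 fell and 619 rose on chromosomes 11 to 39, against 1307 and 2472 on chromosomes 1 to 10. The fallen members had a median gene length of 1667.5 bases, and the risen ones 3377 bases. Over all genes, the median log2 fold change in whole brain was -0.25 on chromosomes 11 to 39 and 0.14 on chromosomes 1 to 10, and in 4 equal bins of gene length it was -0.20 in the shortest genes and 0.12 in the longest. With a per-library offset for chromosome and gene length, 15 members were called, 11 of them among the 17, beside 40.4% of all genes.

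The offset kept PRDX6 at -0.65 ± 0.09, GSS at -0.61 ± 0.13, OSGIN1 at -0.55 ± 0.09, SQSTM1 at -0.52 ± 0.11 and PRDX3 at 0.38 ± 0.07. GPX1 was kept at a smaller -0.21 ± 0.08, with an adjusted p of 0.0468. GPX4 turned round to 0.16 ± 0.07, with an adjusted p of 0.102. GCLC, GPX3, SESN2, SRXN1 and TXNRD1 kept their direction but no longer passed, with adjusted p-values of 0.0778, 0.0759, 0.0799, 0.36 and 0.126. SESN1, SOD3 and TXN were called lower with the offset, and TXNRD2 higher. PRDX6, SQSTM1, OSGIN1, GSS, GPX1 and PRDX3 were called in all 21 alternatives run for whole brain. On build GRCg7b, PRDX6 lies on chromosome 8 (4312138 to 4322155), SQSTM1 on chromosome 13 (13066090 to 13070515) and OSGIN1 on chromosome 11 (2552694 to 2641742). GSS lies on chromosome 20 (2993579 to 3001529), GPX1 on chromosome 12 (3029085 to 3031471) and PRDX3 on chromosome 6 (30808746 to 30816517), and all 6 are annotated as protein coding.

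**Figure D4:**
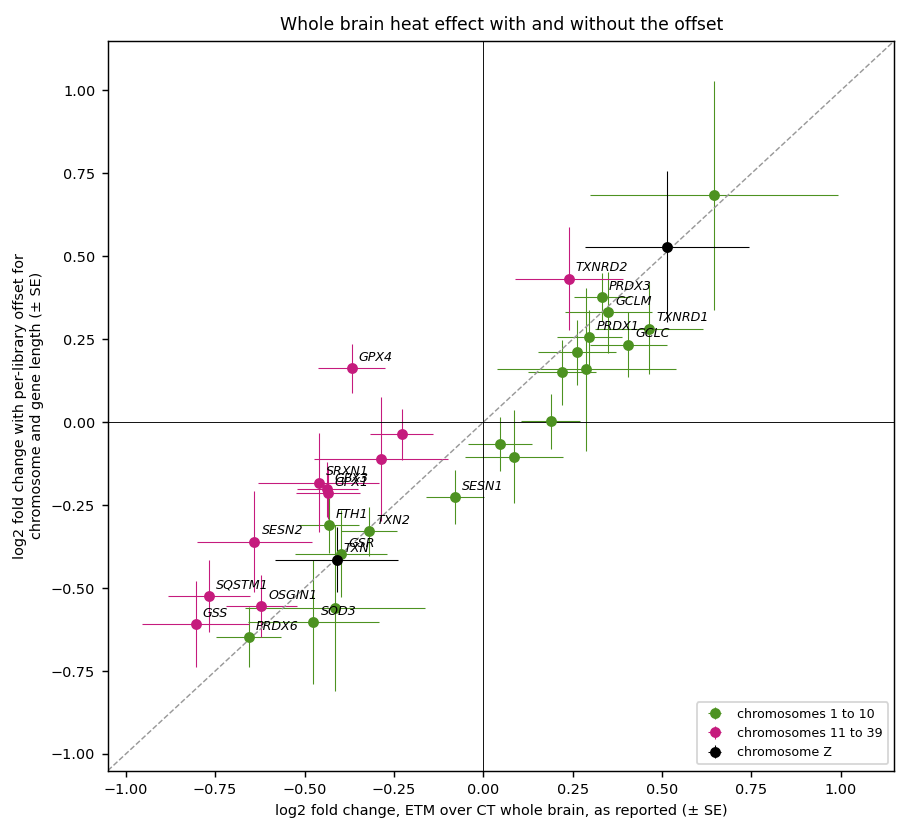
Whole brain log2 fold change, ETM over CT, of each member as reported (x) and with a per-library offset for chromosome and gene length (y), with standard errors, coloured by chromosome class; the dashed line marks equal values. Members on chromosomes 11 to 39 lie above the line, and GPX4 crosses 0.

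Reads were counted without a stated strand rule, and 11 members overlap another gene, 4 of them on the same strand. In whole brain the log2 fold changes of the same-strand neighbours were -0.24 ± 0.08 for USP4 (beside GPX1), -0.44 ± 0.12 for FOXRED2 (beside TXN2), 0.25 ± 0.10 for CHST11 (beside TXNRD1) and -0.35 ± 0.07 for PPP2CB (beside GSR). These 4 members' values are uncertain, and how far their neighbours' reads enter them was not examined. The other 7, SOD3, GPX3, GPX8, PRDX1, PRDX6, SQSTM1 and OSGIN1, overlap a gene on the opposite strand. Without strand, reads in any shared exon cannot be told apart, and exon positions were not examined. Among these neighbours, TNIP1 (beside GPX3) was at -0.56 ± 0.10, lower as the member was. FAM78B and TADA1 (both beside PRDX6) were at -0.41 ± 0.09 and -0.50 ± 0.12, also lower with it. Others went against their member, CDC20B at -0.94 ± 0.24 beside GPX8 (0.51) and CCDC149 at 0.34 ± 0.12 beside SOD3 (-0.475). MMACHC (beside PRDX1) was at 0.32 ± 0.23 and did not pass the test. MGAT4B and an unnamed gene (both beside SQSTM1) were at -0.11 ± 0.08 and -0.42 ± 0.20 and did not pass either. SLC38A8 (beside OSGIN1) had a mean of at most 0.4167 counts.

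Summed markers of meninges and fibroblasts were at 587 to 683 CPM in ETM whole brain, against 1470 to 1670 CPM in CT whole brain, with 5 of 8 lower and 1 higher. Red blood cell markers summed to 207 to 485 CPM in ETM whole brain, against 506 to 768 CPM in CT whole brain, with 3 of 8 lower and HBZ at 0 in ETM. For both lists the ETM and CT whole brain libraries did not overlap. That held for 8 of the 13 marker lists, with 5 at lower and 3 at higher values in ETM. Microglia and macrophage markers summed to 72 to 84 CPM in ETM whole brain, against 110 to 120 CPM in CT whole brain, with 5 of 9 lower and 1 higher. Neuron markers summed to 5480 to 6300 CPM in ETM whole brain, against 4120 to 4480 CPM in CT whole brain, with 6 of 8 higher and 2 lower. The other lists that separated were pallium (548 to 564 CPM in ETM, against 420 to 518 CPM in CT whole brain), choroid plexus (1230 to 1800, against 774 to 1200), hypothalamus (71.3 to 72.2, against 113 to 120) and ependyma (87.9 to 105, against 124 to 147). In pallium 2 of 6 were called higher and 1 lower, in hypothalamus 3 of 9 lower, and in ependyma 4 of 6 lower and 1 higher. Of 6 choroid plexus markers, AQP1 and TTR alone were called, both higher, and the list's median log2 fold change was -0.19. TTR alone averaged 1380 CPM in ETM and 936 CPM in CT whole brain. The part of these cell types in the members' changes was not tested.

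In hypothalamus none of the 32 members was called, and 0.0454% of all genes were (7 of 15405). DESeq2 also called no member. At an unadjusted p below 0.05 there were 4 members by edgeR and 4 by DESeq2, and the edgeR share of 12.5% stood beside 10.3% of all genes. The members' median log2 fold change was 0.06, beside 0.01 over all genes. In 5 members every ETM library was above every CT library, against 8.39% of all genes, and in 2 every ETM library was below, against 7.75%. Midbrain and hindbrain markers summed to 113 to 474 CPM in ETM hypothalamus, against 596 to 828 CPM in CT hypothalamus, without overlap. Endothelium (447 to 470, against 479 to 548) and choroid plexus (48.8 to 65.1, against 41.2 to 45.5) also separated. No single marker was called, of 8 tested for midbrain and hindbrain, 8 for endothelium and 5 for choroid plexus. The median log2 fold change of the midbrain and hindbrain markers was -0.149. The part of these cell types in the results for hypothalamus was not tested.

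The 4 members with the lowest p were all at higher values in ETM. GPX1 had 88.6, 77.9 and 96.9 CPM in ETM hypothalamus, against 66.2, 65.5 and 57.0 CPM in CT hypothalamus. The groups did not overlap, at 0.48 ± 0.12 (SE), adjusted p = 0.247. PRDX3 had 162, 162 and 167 CPM in ETM hypothalamus, against 131, 135 and 124 CPM in CT hypothalamus, at 0.33 ± 0.10 (SE), adjusted p = 0.313. SOD1 had 314, 299.6 and 259.7 CPM in ETM hypothalamus, against 245, 224 and 219 CPM in CT hypothalamus, at 0.34 ± 0.12 (SE), adjusted p = 0.365. The groups were apart for both. SOD3 had 7.16, 8.53 and 6.84 CPM in ETM hypothalamus, against 4.66, 5.06 and 5.17 CPM in CT hypothalamus, also apart, at 0.59 ± 0.21 (SE), adjusted p = 0.369. With reads recovered from the FPKM column of ETM hypothalamus 1 in place of its counts, GPX1 was at 0.64 ± 0.18, PRDX3 at 0.22 ± 0.16, SOD1 at 0.27 ± 0.14 and SOD3 at 0.47 ± 0.26. PRDX3 then overlapped between the groups, with 128 CPM in that library and 124 to 135 CPM in CT hypothalamus, and SOD3 was at 5.26 CPM there, against 4.64 to 5.15 CPM in CT hypothalamus. SOD2, whose groups overlap by the counts, was at 79.5 CPM in that library, against 131 to 136 CPM in CT hypothalamus.

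Other members overlapped in most cases. PRDX6 had 981, 695 and 816 CPM in ETM hypothalamus, against 634, 713 and 719.5 CPM in CT hypothalamus. SQSTM1 had 25.2, 22.4 and 21.5 CPM in ETM hypothalamus, against 20.7, 23.0 and 22.1 CPM in CT hypothalamus. GSS had 89.2, 72.2 and 63.0 CPM in ETM hypothalamus, against 69.7, 64.2 and 64.8 CPM in CT hypothalamus. None of these 3 separated the groups. GPX3 had 238, 187 and 182 CPM in ETM hypothalamus, against 163, 169 and 179 CPM in CT hypothalamus. Here each ETM library was above each CT library, at 0.24 ± 0.13 (SE), adjusted p = 0.548. GPX4 had 409, 259 and 259 CPM in ETM hypothalamus, against 270.4, 265 and 284 CPM in CT hypothalamus, with ETM library 1 far above the rest. FTH1 had 1022, 915 and 961 CPM in ETM hypothalamus, against 973, 846 and 985 CPM in CT hypothalamus. PRDX1 had 281, 325 and 346 CPM in ETM hypothalamus, against 423, 361 and 324 CPM in CT hypothalamus, with overlap in both.

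NFE2L2 had 30.2, 37.5 and 36.7 CPM in ETM hypothalamus, against 34.0, 38.3 and 39.3 CPM in CT hypothalamus. HMOX1 had 13.2, 8.28 and 11.3 CPM in ETM hypothalamus, against 6.62, 12.03 and 9.71 CPM in CT hypothalamus. Both overlapped, at -0.10 ± 0.14 and 0.20 ± 0.25. SOD2 had 143, 110.0 and 131 CPM in ETM hypothalamus, against 133, 137 and 132 CPM in CT hypothalamus, and CAT had 62.2, 81.7 and 76.1 CPM in ETM hypothalamus, against 90.02, 84.8 and 71.8 CPM in CT hypothalamus. Neither separated the groups. TXN had 232, 136 and 202 CPM in ETM hypothalamus, against 292, 239.5 and 129 CPM in CT hypothalamus. By the counts, the lowest library of each group was the one with the high W-linked share. With the recovered reads, ETM hypothalamus 1 was instead the lowest of its group for TXN, at 105 CPM. The log2 fold change of TXN was then -0.58 ± 0.33, against -0.22 ± 0.28 by the counts, and neither passed the test. GCLC had 42.7, 47.3 and 51.2 CPM in ETM hypothalamus, against 49.2, 50.3 and 41.7 CPM in CT hypothalamus. GCLM had 30.3, 44.2 and 41.4 CPM in ETM hypothalamus, against 44.8, 30.4 and 38.4 CPM in CT hypothalamus. GSR had 70.8, 66.3 and 56.0 CPM in ETM hypothalamus, against 72.2, 52.5 and 65.4 CPM in CT hypothalamus. These 3 glutathione genes overlapped between groups, with log2 fold changes of -0.0038, 0.03 and 0.02.

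TXNRD1 had 10.9, 17.1 and 18.1 CPM in ETM hypothalamus, against 13.6, 14.7 and 14.1 CPM in CT hypothalamus. TXN2 had 63.2, 62.1 and 48.0 CPM in ETM hypothalamus, against 65.7, 58.0 and 63.2 CPM in CT hypothalamus. SRXN1 had 32.4, 20.4 and 19.6 CPM in ETM hypothalamus, against 24.8, 20.7 and 23.0 CPM in CT hypothalamus. Each of them overlapped, and ETM hypothalamus 1 had the highest SRXN1 value of its group and the lowest TXNRD1 value. SESN2 had 17.4, 12.5 and 9.38 CPM in ETM hypothalamus, against 16.4, 15.7 and 14.7 CPM in CT hypothalamus. OSGIN1 had 73.0, 45.2 and 47.1 CPM in ETM hypothalamus, against 61.4, 61.2 and 63.0 CPM in CT hypothalamus. In both stress regulators ETM hypothalamus 1 was the highest library of all 6, and the other ETM libraries were below every CT library. The other 8 members, GPX7, GPX8, PRDX4, TXNRD2, NQO1, HMOX2, SLC7A11 and SESN1, had log2 fold changes from -0.64 ± 0.44 for GPX7 to 0.84 ± 0.42 for GPX8, none past the test. GPX8 lies on the Z chromosome, as TXN does. Without the libraries of high W-linked share GPX8 was at 0.46 ± 0.51, and with that share as a covariate at 0.88 ± 0.44. GPX7 and SESN1 were the 2 members with every ETM library below every CT library.

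Whether the response to heat differed between the tissues was tested directly, as the change in hypothalamus minus the change in whole brain. The marker lists that separated ETM from CT differed between the tissues, as given above, and their part in this difference was not tested. The response differed for 8 of 32 members, beside 24.2% of all genes, with 7 positive and 1 negative (11.9% and 12.3% of all genes). Over all genes, 1154 were positive and 359 negative on chromosomes 11 to 39, against 688 and 1569 on chromosomes 1 to 10. Members were 4 and 0 there, against 3 and 1. In the shortest of 4 equal bins of gene length, members were 5 and 0, and all genes 597 and 199. With the chromosome and length offset, 5 members were positive and 1 negative, beside 3047 of all genes called (18.8%), 1414 of them positive. Whether members exceeded this background was not tested. Without the offset, GPX1 was at 0.88 ± 0.15 (SE), adjusted p = 0.00281. PRDX6 was at 0.89 ± 0.17 (SE), adjusted p = 0.00488, and SQSTM1 at 0.80 ± 0.15 (SE), adjusted p = 0.00449. GSS was at 0.94 ± 0.22, GPX3 at 0.64 ± 0.15 and FTH1 at 0.44 ± 0.14. These 6 genes fell in whole brain, and their hypothalamus fold changes, none past the test, were above 0. They were 0.04 ± 0.13 for FTH1 and 0.07 ± 0.13 for SQSTM1, each smaller than its error, and at most 0.48 ± 0.12 for GPX1. With the offset SQSTM1 was at -0.02 ± 0.12 in hypothalamus. SOD3 had the highest difference, 1.03 ± 0.26 (SE), adjusted p = 0.0146, from higher values in ETM hypothalamus and lower ones in ETM whole brain.

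PRDX1 differed the other way, at -0.56 ± 0.16 (SE), adjusted p = 0.0269. GPX1, PRDX6 and SQSTM1 passed in all 27 alternatives, of which the looser threshold cannot lose a call. With reads recovered for ETM hypothalamus 1, FTH1, PRDX1 and SOD3 no longer passed, and with the chromosome and length offset FTH1 and GPX3 did not. FTH1 also lost its call without CT hypothalamus 1 or 2, CT whole brain 2 or 3 or any 1 of the ETM whole brain libraries, with adjusted p from 0.0517 to 0.0928. PRDX1 lost it without CT hypothalamus 1 or 2, CT whole brain 2 or 3, ETM hypothalamus 1 or ETM whole brain 1, at 0.0554 to 0.0872. PRDX3 was called in whole brain alone, yet its 2 changes were 0.33 in hypothalamus and 0.33 in whole brain, a difference of -0.04 ± 0.11 (SE), adjusted p = 0.81. Without the 3 libraries of high W-linked share, 6 members differed, all among the 8, beside 17.2% of all genes.

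The tissues were also compared within each treatment. In ETM embryos 19 of 32 members differed between hypothalamus and whole brain, 14 higher and 5 lower in hypothalamus, beside 58.9% of all genes (29.3% higher, 29.6% lower). In CT embryos 10 of 32 differed, 8 higher and 2 lower, beside 34.3% of all genes (16.7% higher, 17.6% lower). The totals of 59.4% and 31.2% of members were close to those over all genes. By direction, 43.8% of members were higher and 15.6% lower in ETM embryos, and 25% higher and 6.25% lower in CT embryos. In ETM embryos direction went with chromosome and gene length. Over all genes, 2433 were higher and 1050 lower on chromosomes 11 to 39, against 2105 and 3486 on chromosomes 1 to 10. Members were 7 and 0 there, against 7 and 5. In the shortest of 4 equal bins of gene length, members were 10 and 0, and all genes 1432 and 763. With the chromosome and length offset, 13 members were higher and 4 lower, beside 9206 of all genes called (56.8%), 4482 of them higher. Whether members exceeded this background was not tested. The 7 members called in both ETM and CT embryos were SOD1, SOD2, SOD3, PRDX3, PRDX6, GPX3 and TXNRD2. They had the same sign in both, as did 96.4% of the 4367 genes called in both.

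PRDX6 was higher in hypothalamus by 1.49 ± 0.13 in ETM embryos and by 0.60 ± 0.12 in CT embryos, on the log2 scale. GPX3 was higher by 1.10 ± 0.11 in ETM and 0.46 ± 0.11 in CT embryos. SQSTM1 and GSS were higher in ETM embryos, at 0.87 ± 0.11 and 1.25 ± 0.16, and did not pass in CT embryos, at 0.07 ± 0.11 and 0.31 ± 0.16. SOD1 was higher by 0.53 ± 0.09 in ETM and 0.42 ± 0.09 in CT embryos, and SOD2 by 0.29 ± 0.11 in ETM and 0.62 ± 0.11 in CT embryos. Without the libraries of high W-linked share, TXN was also called higher in CT hypothalamus than in CT whole brain, at 0.36 ± 0.12, adjusted p = 0.0424, against 0.09 ± 0.27 (SE), adjusted p = 0.831 with them. GPX8, also on the Z chromosome, lost its CT call without those libraries, at -0.72 ± 0.355, adjusted p = 0.16. It was -0.99 ± 0.33 (SE), adjusted p = 0.0344 with them, and -0.95 ± 0.34, adjusted p = 0.0472 with that share as a covariate. SOD3 was lower in hypothalamus in both, at -0.70 ± 0.19 (SE), adjusted p = 0.00535 in ETM embryos and -1.73 ± 0.19 (SE), adjusted p = 1.64e-05 in CT embryos.

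GPX7 was lower in ETM hypothalamus than in ETM whole brain, at -1.68 ± 0.38, from low levels. TXNRD1, SLC7A11 and CAT were lower there as well, at -0.71 ± 0.19, -0.98 ± 0.29 and -0.40 ± 0.13. GPX4 was higher at 0.56 ± 0.15 and turned to -0.11 ± 0.10 with the chromosome and length offset. Under that offset CAT (adjusted p = 0.202), PRDX3 (0.237), SESN2 (0.0616) and TXNRD2 (0.465) lost their calls in ETM embryos and GCLC, SESN1 and TXN were called higher. In CT embryos PRDX3 lost its call (0.095), SESN1 was called higher and HMOX2 lower. Oligodendrocyte markers summed to 16100 to 26100 CPM in ETM hypothalamus, against 3100 to 4130 CPM in ETM whole brain, and to 9600 to 19500 CPM in CT hypothalamus, against 2920 to 4740 CPM in CT whole brain. Their part in the tissue differences was not tested.

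With reads recovered from the FPKM column of ETM hypothalamus 1, 17 members were called in ETM embryos, without SOD2 (0.03 ± 0.16, adjusted p = 0.881), PRDX3 (adjusted p = 0.276) and TXNRD2 (adjusted p = 0.314) and with SRXN1 added (0.75 ± 0.29, adjusted p = 0.0449). In CT embryos 6 were called, without PRDX1 (adjusted p = 0.107), PRDX3 (0.0771), TXNRD2 (0.0656) and GPX8 (0.0687). Of all genes, these runs called 57.4% in ETM embryos and 25.6% in CT embryos. The CT libraries' own values were not replaced, but all 12 libraries enter 1 fit. Among the calls in ETM embryos, CAT lost its own without ETM hypothalamus 1 or ETM whole brain 1 (adjusted p 0.0622 to 0.0755), PRDX3 without ETM whole brain 2 or 3 (0.0582 to 0.0593) and TXNRD2 without ETM whole brain 1 (0.0503). SOD2 lost it without ETM hypothalamus 1 or 3 or ETM whole brain 1 or 3 (0.076 to 0.149). In CT embryos, GPX8 lost its call without CT hypothalamus 1 or 3 or any 1 CT whole brain library (0.056 to 0.122), PRDX3 without CT hypothalamus 2 or CT whole brain 3 (0.0539 to 0.0615) and TXNRD2 without CT hypothalamus 2 or CT whole brain 2 (0.0767 to 0.0795).

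**Figure D5:**
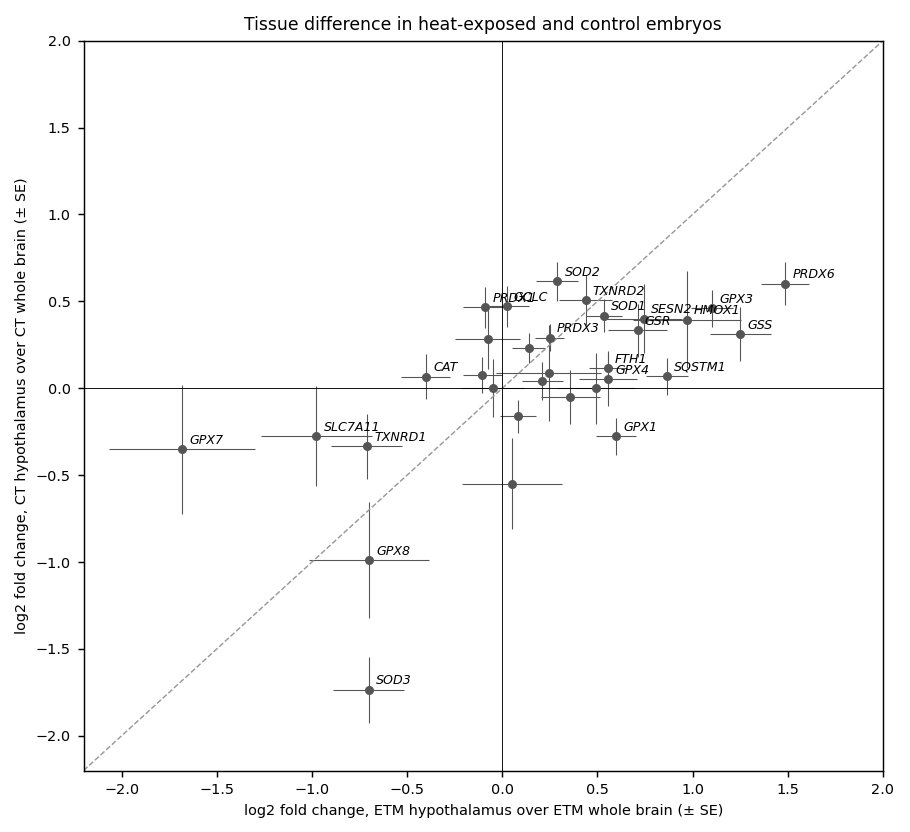
Log2 difference between hypothalamus and whole brain for each member in ETM embryos (x) and in CT embryos (y), with standard errors; the dashed line marks equal values. PRDX6 and GPX3 are higher in hypothalamus in both, SOD3 is lower in both, and GSS and SQSTM1 lie far to the right of the line.

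Around the members, 10 lists of related genes held 199 genes, of which 161 were tested in whole brain. Heat exposure raised 33 and lowered 40 of them, or 20.5% and 24.8%, close to the 21.1% and 23.2% of all genes. The counts per list are a description and show nothing particular to a list. In the list of glutathione use and recycling 10 of 25 rose and 5 fell. GLO1, the glutathione-dependent glyoxalase, was at 1.11 ± 0.14, GLRX2, the mitochondrial glutaredoxin, at 1.02 ± 0.21 and MGST1, a microsomal glutathione transferase, at 0.62 ± 0.09. Of 14 partners and regulators of NFE2L2, 2 rose and 4 fell. Among those that fell were CREBBP, its coactivator, at -0.63 ± 0.10, BTRC at -0.36 ± 0.07, and MAFG, its dimer partner, at -0.41 ± 0.09.

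Of 15 genes for NADPH supply 2 rose and 5 fell, with NADK, the NAD kinase, at 0.77 ± 0.11 and IDH2, the mitochondrial isocitrate dehydrogenase, at -0.47 ± 0.08. Among 22 selenoprotein genes 6 rose and 5 fell, and SELENOP2 fell to 274.9 ± 5.82 CPM in ETM whole brain, against 527 ± 58.8 CPM in CT whole brain (SD, n = 3 each). Of 21 genes for iron, haem and copper 4 rose and 6 fell. MT4, a metallothionein, was at 1.20 ± 0.14 and SLC11A2, the ferrous iron importer, at -1.26 ± 0.16. In the thioredoxin-fold list 4 of 13 rose and 1 fell, in the list of oxygen radical sources 2 of 18 rose and 5 fell, and in the ferroptosis list 3 of 13 rose and 4 fell. In the lists of oxidative DNA repair and of p53 and FOXO targets none rose, while 2 of 10 and 3 of 11 fell.

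In hypothalamus none of the 160 tested genes of these lists was called. MT4 averaged 252 ± 56.7 CPM in ETM hypothalamus and 73.6 ± 40.0 CPM in CT hypothalamus (SD, n = 3 each), a log2 fold change of 1.77 ± 0.37 with an adjusted p of 0.187.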

How the data were processed

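The authors deposited raw counts per gene, made per the submitters' processing notes with featureCounts (Subread 2.0.6) on build GRCg7b. No source used here names the aligner, the strand setting or the rule for multiply mapped reads, and incubator humidity differs between the labels. The authors also deposited FPKM values. In 11 of 12 libraries these were proportional to counts over gene length, to within 0.1%; in ETM hypothalamus 1 they were not, and 99.95% of its values gave whole reads within 0.01. Counts were used throughout, and FPKM and the recovered reads only as alternatives. The 634 rows with no gene name held 0.513% of counts and were kept.

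Groups came from the titles. The test was edgeR's quasi-likelihood test (version 4.0.16, R 4.3.3) on counts, with TMM and filterByExpr, with Benjamini-Hochberg adjustment over all genes and a call at an adjusted p below 0.05. Heat was tested within each tissue on 6 libraries, and the interaction and the tissue differences on all 12. Standard errors come from the quasi-likelihood F. The script was tested on simulated data. All 32 members passed the filter in every contrast. Alternatives were DESeq2 1.42.0, limma 3.58.1 on log2(FPKM + 1) and log2(FPKM + 0.1), other scalings, count filters, thresholds and samples, protein-coding genes alone, a W-linked covariate, a chromosome and length offset, a replicate block, and each library left out. Leaving out the 3 libraries with W-linked shares above 0.05% was added after the data were seen.

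The members and lists were chosen with earlier results of these data known. Library values are printed for members called in a heat contrast or the interaction, the 3 lowest p-values per contrast, and SOD1, SOD2, CAT, GPX1, GPX4, NFE2L2 and HMOX1. TXN is printed as well, outside that rule. Pairs of libraries within a group differed beyond counting noise (chi-square per degree of freedom 5.797 to 37.4 over 12 pairs). A planned motif and protein sequence comparison was not run.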

Additional observations from a re-analysis of the deposited data

Results flagged for a closer look

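In 8 of 32 members the heat response differed between the tissues by the interaction test itself, beside 24.2% of all genes. The change in hypothalamus minus that in whole brain was 0.88 for GPX1, 0.80 for SQSTM1, 0.89 for PRDX6, 0.94 for GSS, 0.64 for GPX3, 1.03 for SOD3, 0.44 for FTH1 and -0.56 for PRDX1, on the log2 scale. Of 27 alternatives, FTH1 lost its call in 15, PRDX1 in 12, SOD3 in 4, GPX3 in 2 and GSS in 1. GPX1, PRDX6 and SQSTM1 kept theirs in all, though the looser threshold among them cannot lose a call. In GPX7 every ETM library lay below every CT library in hypothalamus and above every CT library in whole brain. Its difference of -1.33 did not pass the interaction test, with an edgeR adjusted p of 0.0848, and its levels were at most 1.92 CPM.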

How the results depend on the processing

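The counts of called members stayed within 1.5 times the reported value in all alternatives for the tissue difference in ETM embryos. In hypothalamus no alternative called a member, which says little where 7 of 15405 genes were called. In whole brain the count was 10 with limma on log2(FPKM + 1) and no filter, instead of 17. Of all genes tested, 22.6% were then called, instead of 44.3%. The interaction count of 8 became 5 with limma on log2(FPKM + 1), 5 with log2(FPKM + 0.1), 3 without the filter and 5 with recovered reads. The share of all genes tested went from 24.2% to 16.2%, 15.3%, 4.52% and 16.2%. The control tissue count of 10 became 5, 5, 5 and 6 under the same settings, and the all-gene share went from 34.3% to 25.6%, 25.5%, 14.1% and 25.6%. The causes were not tested. Leaving out 1 library gave 0 to 0 members in hypothalamus, 12 to 19 in whole brain, 6 to 9 for the interaction, 8 to 12 for the control tissue difference and 16 to 21 for that in ETM embryos. Of all genes, the same runs called 0% to 0.246%, 35.2% to 42.3%, 14.1% to 25.4%, 25.3% to 38% and 51.4% to 58.3%. GPX4 reversed under the chromosome and length offset, to 0.162 in whole brain and -0.1137 in the ETM tissue difference. All-gene calls in hypothalamus were 7 with edgeR, 187 with DESeq2 and 0 with limma. Deviations of same-numbered libraries from their group means correlated at -0.355 to 0.21, which cannot settle whether the numbers pair libraries. With a replicate block the counts were 0, 18, 7, 10 and 18, beside 0.013%, 40.4%, 18.4%, 30.5% and 56.4% of all genes. Their order is hypothalamus, whole brain, interaction, control tissue difference and ETM tissue difference. Recovered reads do not enter the whole brain comparison. With 3 libraries a group, members of few counts such as GPX7, GPX8 and SLC7A11 had the widest errors.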

Other observations

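Ratios of 2 members within a library do not depend on library scaling, but a shift by chromosome or gene length need not cancel. These pairs were chosen after their values were seen and carry no test. The ratio of PRDX1 to PRDX6 was 1.14 ± 0.0199 in ETM whole brain and 0.596 ± 0.106 in CT whole brain, and 0.393 ± 0.0949 in ETM hypothalamus and 0.541 ± 0.112 in CT hypothalamus (SD, n = 3 each). The ratio of GCLC to GSS was 1.498 ± 0.305 in ETM whole brain and 0.657 ± 0.150 in CT whole brain, and 0.649 ± 0.167 in ETM hypothalamus and 0.711 ± 0.0710 in CT hypothalamus (SD, n = 3 each). Both ratios were higher in all 3 ETM whole brain libraries than in the other 9. They use the counts of ETM hypothalamus 1. With the recovered reads that library had PRDX1 at 181 and PRDX6 at 1060 CPM, and GCLC at 33.2 and GSS at 105 CPM. The ratio of GCLC to its partner GCLM was 1.153 ± 0.235 in ETM whole brain and 1.10 ± 0.128 in CT whole brain. The ratio of TXNRD1 to TXN was 0.101 to 0.263 in ETM whole brain, against 0.0778 to 0.0904 in CT whole brain. TXN lies on the Z chromosome, and the 0.263 was in ETM whole brain 1, the library with the high W-linked share. ETM whole brain 2 and 3 were at 0.156 and 0.101. The ratio in ETM whole brain overlapped both hypothalamus groups, at 0.0471 to 0.126 in ETM hypothalamus and 0.0466 to 0.109 in CT hypothalamus.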
